A study of Mus musculus with 6 samples.

Results

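The WNT pathway genes described here were the WNT ligands, the Frizzled receptors, the co-receptors LRP5 and LRP6, the ROR receptors, the R-spondins with their LGR receptors, the secreted inhibitors, the TCF/LEF transcription factors and *Axin2*. The rule took genes by symbol, was set with earlier results of these data known, and found 55 of the 56884 genes in the expression tables. All libraries came from a cell line of the stromal vascular fraction (SVF) of mouse subcutaneous white adipose tissue (scWAT), the fraction that holds adipocyte precursors. A retroviral vector had added mouse PPARγ2 with one lysine replaced by glutamine (K382Q, resembling an acetylated lysine) or by arginine (K382R, resembling a deacetylated lysine), with puromycin selection of a stable line of each. Both lines had spent 2 days in the same beige adipocyte medium, which contained the PPARγ agonist rosiglitazone (0.5 μM), T3 (1 nM), insulin (5 μg/mL), dexamethasone (2 μg/mL), indomethacin (125 μM) and isobutylmethylxanthine (500 μM). The labels gave 3 biological replicates of each mutant, and did not say whether these came from separate infections. Cells without a mutant were not analysed here, so each difference is one between the mutants and has no untreated level beside it.

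WNT ligands are secreted lipid-modified proteins that bind Frizzled receptors on the cell surface. With LRP5 or LRP6 as co-receptor the signal stabilizes β-catenin, which acts in the nucleus through TCF/LEF factors, whereas ROR receptors serve signalling that does not use β-catenin. R-spondins and LGR receptors keep Frizzled proteins on the surface, and secreted Frizzled-related proteins (SFRP), Dickkopf proteins and WIF1 hold the signal down outside the cell. In adipocyte precursors, signalling through β-catenin is known to restrain adipogenesis.

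Expression was given as TPM, a share of all transcripts corrected for gene length, so levels can be compared between genes. The aligned reads came to between 5.95 and 8.15 Gb per library, with ranges that overlapped between the mutants. On the first principal component, which held 61.3% of the variance, the mutants lay apart. The level of *Pparg*, which includes the introduced gene, was 1104 to 1333 TPM in K382Q and 1590 to 1632 TPM in K382R libraries, and gene-level values cannot show which residue was present. Adipocyte markers were abundant, at a summed 52273 to 55968 TPM in K382Q and 43845 to 45040 TPM in K382R libraries, with *Lep* at 0. Of the endothelial markers *Pecam1* was at 1.497 to 2.08 TPM and *Cdh5*, *Kdr* and *Tek* stayed at or below 0.165 TPM. Of the leukocyte markers *Cd68* was at 3.17 to 5.10 TPM and *Ptprc*, *Adgre1* and *Cd3e* stayed at or below 0.0129 TPM. Neither *Pecam1* nor *Cd68* passed the test between the mutants (adjusted p = 0.449 and 0.981).

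Of the 55 genes, 22 were expressed, meaning that 3 or more of the 6 libraries reached a TPM of 0.5. They were 4 of 19 WNT ligands, 8 of 10 Frizzled receptors, both LRP co-receptors, 1 of 2 ROR receptors, 2 of 3 LGR receptors, 2 of 5 SFRP genes and 3 of 4 TCF/LEF genes. No R-spondin, Dickkopf gene, *Wif1* or *Axin2* passed. The mutants were compared by fitting log2(TPM + 0.5) with limma over all 15426 genes that passed the same filter, and adjusted p-values are those of Benjamini and Hochberg over all of them. Differences are given as K382Q minus K382R, and the added 0.5 makes the log2 differences of low genes too small.

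In K382Q-overexpressing cells, 12 of the 22 expressed genes were lower and 3 were higher, with adjusted p-values below 0.05. Of all genes tested 48.1% passed, 36.9% lower and 11.1% higher, so lower values were common in the whole table. Leaving out 1 library at a time gave 7 to 10 lower members and 2 to 3 higher. The share of all genes that passed in those fits is not given, so these counts show only how far the members' calls depend on single libraries. *Lgr6* and *Sfrp1* reached the filter only through the K382R libraries, where they are high, and had to differ. Without them 10 of 20 genes were lower and 3 higher. The median log2 difference of the 22 genes was −0.26 and that of all genes was −0.14. The 3 libraries of one mutant lay wholly below or above those of the other in 16 expressed genes, 13 of them lower and 3 higher in K382Q, against 57% of all genes (42.8% lower and 14.1% higher). Without *Lgr6* and *Sfrp1* these were 14 of 20 genes, 11 lower and 3 higher. Because TPM is a share, the scale matters. When the libraries were rescaled by the median ratio over genes, the median of all genes moved to 0.0039 and the share of all genes that passed to 40.3%, 19.9% higher and 20.4% lower. On that scale 10 of the 22 genes passed, 4 higher and 6 lower, and 4 were lower without *Lgr6* and *Sfrp1*. RNA of all cells in a culture was measured together, so fewer cells of a type and less RNA per cell cannot be told apart. An exact permutation test of 3 against 3 libraries cannot give a two-sided p below 0.1, so single genes were tested only within the fit over all genes.

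**Figure D1:**
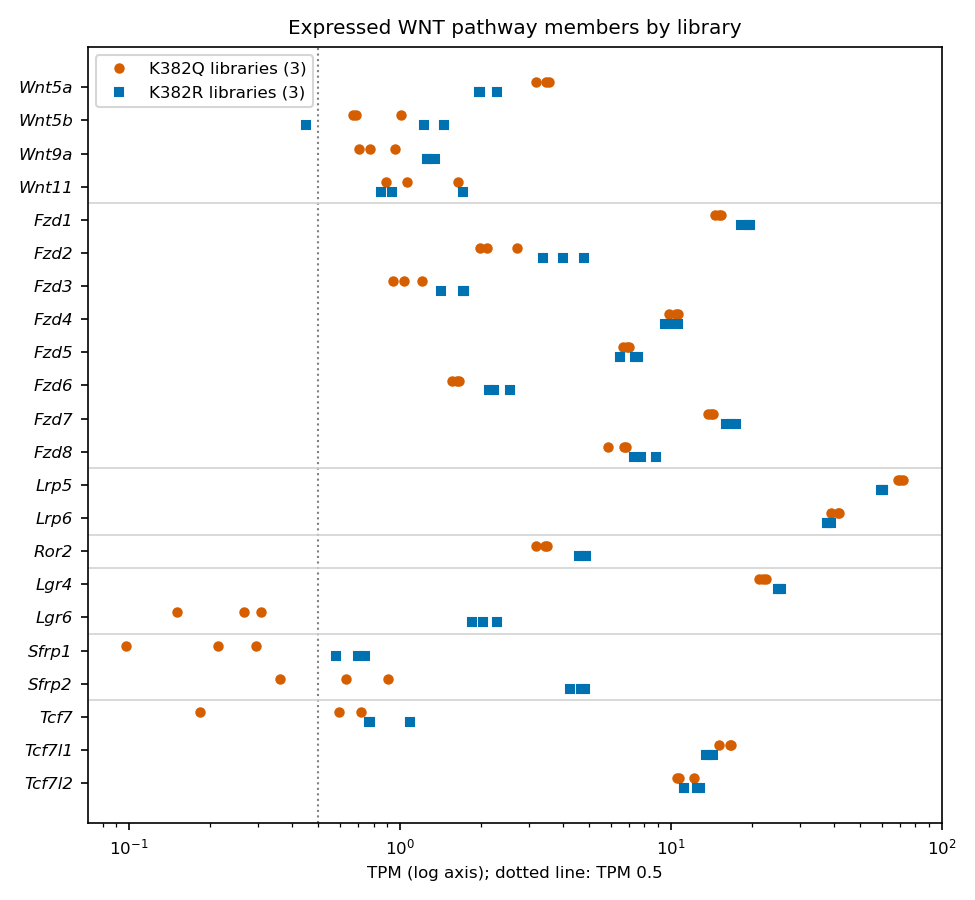
TPM of the 22 expressed WNT pathway genes on a log axis, with 1 circle for each of the 3 K382Q libraries and 1 square for each of the 3 K382R libraries. The gap between the mutants is widest for *Sfrp2* and *Lgr6*, where every K382Q library is under 1 TPM and every K382R library above 1.8 TPM.

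**Figure D2:**
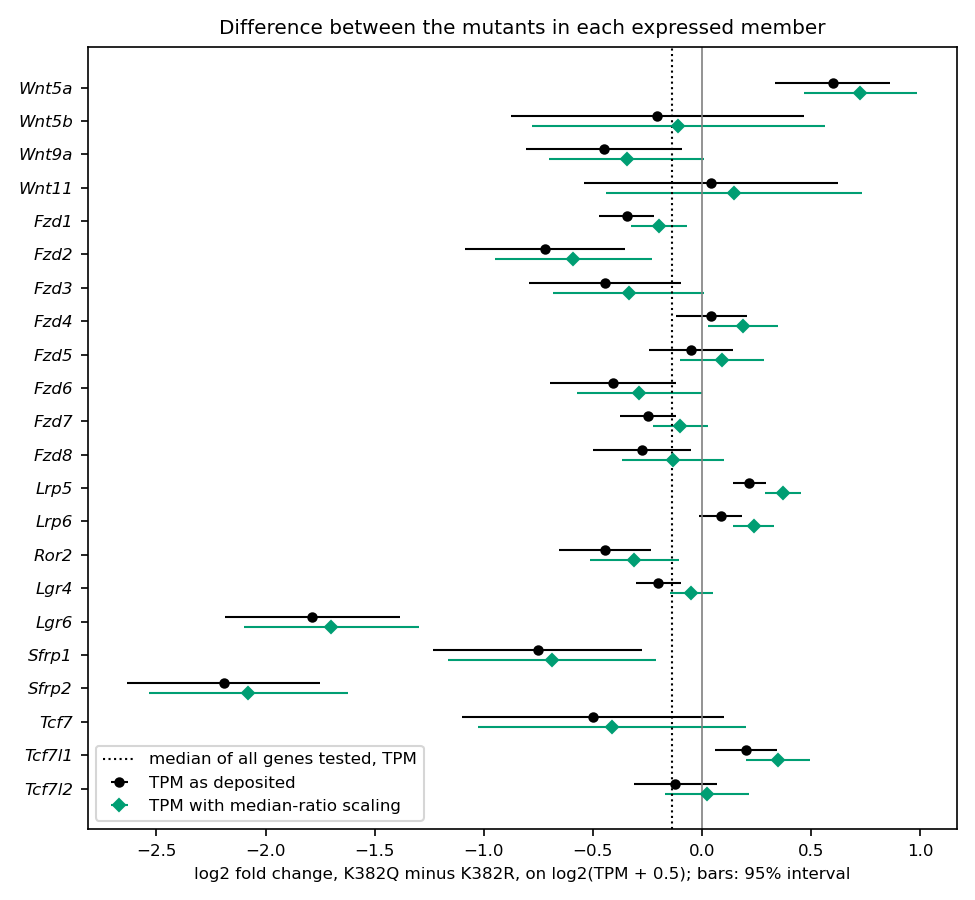
The log2 difference of each expressed gene (K382Q minus K382R) with its 95% interval, from TPM as deposited (circles) and after median-ratio scaling (diamonds). The genes with an adjusted p below 0.05 on both scales are *Sfrp2*, *Lgr6*, *Sfrp1*, *Fzd2*, *Ror2* and *Fzd1*, below 0, and *Wnt5a*, *Lrp5* and *Tcf7l1*, above 0. The dotted line is the median of all genes tested.

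The genes with the largest differences were *Sfrp2*, a secreted decoy that binds WNT proteins, and *Lgr6*, a receptor for R-spondins. Both were lower in K382Q-overexpressing cells, by 7.24-fold and 8.49-fold in mean TPM, and they were the only 2 of the 22 genes that also passed a fold change of 2, although *Lgr6* entered the test only through the K382R libraries. Over all genes 3.88% passed both thresholds, 2.61% lower and 1.27% higher, and with median-ratio scaling 3.78%, 1.92% lower and 1.86% higher. The sequence before the start of each is printed below, 5′ to 3′ on the strand of the gene, together with that of *Fzd1*, the most abundant Frizzled gene. They are RefSeq promoter sequences whose table is on GRCm38.p6. Each was found unchanged in GRCm39, whose coordinates are given, and shortened to the bases before every annotated start. Capitals mark the TCF/LEF motif CTTTGA, which in *Fzd1* stands on the opposite strand at bases 9 to 14.

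Sfrp2, chr3:83673378-83673480, + strand: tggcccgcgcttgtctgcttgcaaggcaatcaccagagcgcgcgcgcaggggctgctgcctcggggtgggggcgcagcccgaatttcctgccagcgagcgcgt

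Lgr6, chr1:135033101-135033264, - strand: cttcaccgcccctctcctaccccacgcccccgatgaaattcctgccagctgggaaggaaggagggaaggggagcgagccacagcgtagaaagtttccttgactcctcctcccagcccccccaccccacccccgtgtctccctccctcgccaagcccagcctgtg

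Fzd1, chr5:4808217-4808466, - strand: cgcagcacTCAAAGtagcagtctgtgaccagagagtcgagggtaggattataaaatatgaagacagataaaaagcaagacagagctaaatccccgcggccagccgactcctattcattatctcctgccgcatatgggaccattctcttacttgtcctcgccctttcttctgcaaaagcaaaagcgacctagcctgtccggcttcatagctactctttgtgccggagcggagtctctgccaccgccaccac

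The promoter table held 46 promoters of 38 of the 55 genes, and 19 promoters of 14 of the 22 expressed genes. Windows of 300 bases were searched on both strands for CTTTGA, for the nuclear receptor half-site AGGTCA and for DR1, the direct repeat of that half-site with a spacer of 1 base, each match of which is also a match of the half-site. The TCF/LEF motif was in 3 of the 19 promoters (*Fzd1*, *Wnt11* and *Wnt5b*) and in 16.0% of the 32851 promoters of the table. The half-site was in 1 of the 19 (*Tcf7*) and in 16.3% of all promoters. DR1 was in 0 of the 19 and in 0.04% of all. These are matches of letters in a short window and do not show binding.

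Among the ligands, *Wnt5a* led in both mutants and was the one that was higher in K382Q-overexpressing cells. WNT5A is the ligand best known for signalling through ROR2 without β-catenin. *Wnt5a* (ENSMUSG00000021994.16, chromosome 14, 28226707 to 28249405) was at 3.18, 3.54 and 3.48 TPM in the K382Q libraries and at 1.98, 1.97 and 2.28 TPM in the K382R libraries. The groups did not overlap, and each K382Q library was above each K382R library. This gave a log2 difference of 0.60 ± 0.11 (SE, n = 3 against 3; adjusted p = 0.00321), and it passed in all 15 alternative settings. The mean TPM was 1.64-fold higher in K382Q.

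*Wnt9a* showed the opposite direction at a lower level, with 0.962, 0.778 and 0.710 TPM in K382Q and 1.34, 1.26 and 1.27 TPM in K382R libraries. The groups were apart, but the call was weak, with a log2 difference of −0.45 ± 0.15 and an adjusted p of 0.0446. It passed in 3 of 15 alternatives and was lost on leaving out any library other than K382Q replicate 1 (adjusted p from 0.0915 to 0.124 in those 5 fits), and with median-ratio scaling (adjusted p = 0.111). With a filter at a TPM of 1 *Wnt9a* entered only through the K382R libraries. *Wnt11* and *Wnt5b* did not pass. *Wnt11* ranged from 0.853 to 1.71 TPM with overlapping groups and a log2 difference of 0.041 (95% interval −0.54 to 0.62). *Wnt5b* ranged from 0.451 to 1.46 TPM, with a log2 difference of −0.20 (−0.88 to 0.47). Its value is uncertain, because 21.8% of its exonic bases lie opposite exons of *Fbxl14*, which was at 29.7 to 33.6 TPM, and whether counting used strand was not given in the sources used here. In the order of levels, *Wnt5a* stood above the other 3 ligands without overlap in both mutants, whereas *Wnt11*, *Wnt9a* and *Wnt5b* overlapped their neighbours.

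The other 15 ligands were below the filter. *Wnt2*, *Wnt3*, *Wnt3a*, *Wnt8a*, *Wnt9b* and *Wnt10a* were listed at 0 in all 6 libraries. *Wnt10b*, a ligand known for restraining adipogenesis through β-catenin, was above 0 in 2 libraries only, at 0.0905 TPM in 1 of K382Q and 0.0722 TPM in 1 of K382R. *Wnt2b* was the highest of the rest, with 0.311 to 0.461 TPM. *Wnt4* reached 0.179 TPM, *Wnt16* 0.161 TPM and *Wnt8b* 0.107 TPM, and *Wnt1*, *Wnt6*, *Wnt7a* and *Wnt7b* reached at most 0.0805 TPM. The TPM summed over all ligands was 6.23 to 7.68 in K382Q and 6.14 to 6.41 in K382R libraries, which overlapped. After median-ratio scaling the sums were 6.47 to 8.13 and 5.81 to 6.08, which did not.

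Secretion of WNT proteins needs *Porcn*, whose product attaches the lipid, and *Wls*, whose product carries the ligands to the surface. *Porcn* (ENSMUSG00000031169.14, chromosome X, 8060087 to 8072764) was at 11.2, 11.9 and 10.0 TPM in K382Q and at 2.91, 3.61 and 3.57 TPM in K382R libraries. All K382Q libraries were thus far above all K382R libraries. *Porcn* had a log2 difference of 1.58 ± 0.11 (adjusted p = 1.92e-05), a 3.28-fold higher mean, and it passed in all 15 alternatives. *Wls* moved the other way. It was lower in K382Q at 113 ± 5.21 TPM (SD, n = 3) against 141 ± 0.818 TPM, a log2 difference of −0.32 (adjusted p = 3.14e-04), which became −0.17 but still passed after median-ratio scaling. *Notum*, whose product removes the lipid, did not pass the filter, with at most 0.440 TPM.

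**Figure D3:**
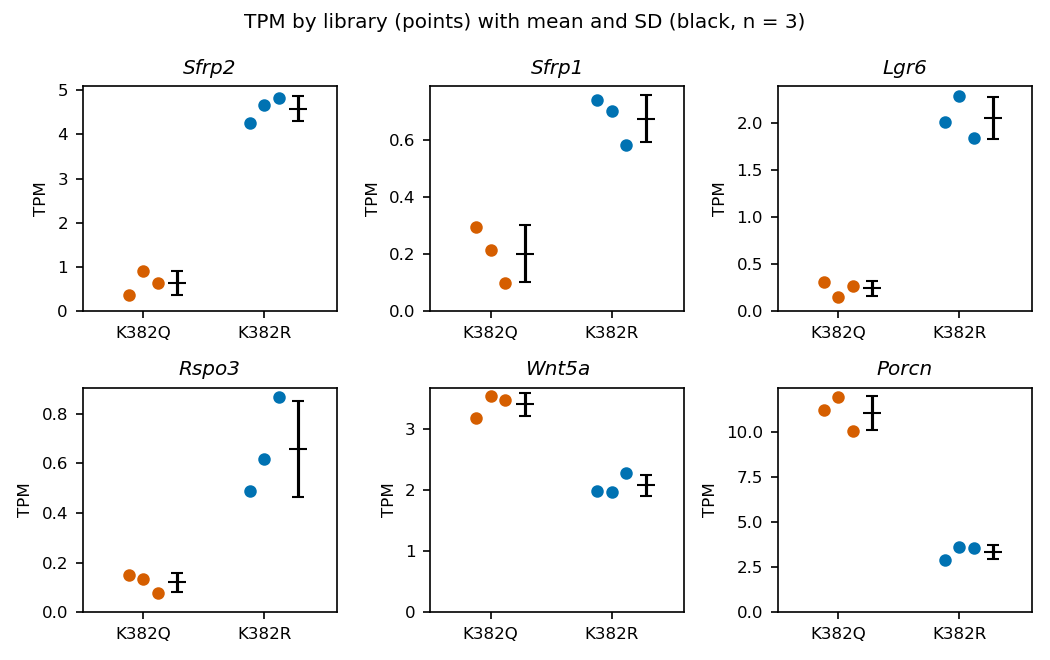
TPM per library (points) of *Sfrp2*, *Sfrp1*, *Lgr6*, *Rspo3*, *Wnt5a* and *Porcn* with the mean and SD of 3 libraries in black. *Wnt5a* and *Porcn* are higher in every K382Q library, and the other 4 are lower in every K382Q library. *Rspo3* was below the expression filter.

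Of the 8 expressed Frizzled receptors 6 were lower in K382Q-overexpressing cells and 2 did not pass on the TPM scale, where 36.9% of all genes were lower, and the median log2 difference was −0.31. With median-ratio scaling 2 were lower, *Fzd1* and *Fzd2*, which is near the 20.4% of all genes, and the median was −0.16. *Fzd1* (ENSMUSG00000044674.7, chromosome 5, 4803839 to 4808035) had 14.5, 15.3 and 15.1 TPM in K382Q and 18.2, 19.5 and 19.7 TPM in K382R libraries. The groups were separated by more than the whole range within either of them. Its log2 difference was −0.34 ± 0.055 (adjusted p = 0.00136), and −0.20 after median-ratio scaling (adjusted p = 0.0247). *Fzd2* had 2.71, 2.10 and 1.98 TPM in K382Q and 3.39, 4.78 and 3.999 TPM in K382R libraries. It had the largest difference of the family, and its replicates scattered more than those of *Fzd1*. *Fzd2* had a log2 difference of −0.72 ± 0.16 (adjusted p = 0.00663) and −0.59 after median-ratio scaling (adjusted p = 0.0184).

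*Fzd7* was at 14.3, 14.1 and 13.8 TPM in K382Q and 16.0, 17.5 and 16.7 TPM in K382R libraries. The groups did not overlap, with a log2 difference of −0.25 ± 0.056 (adjusted p = 0.00783). The call held without each library in turn but not after median-ratio scaling (log2 difference −0.098, adjusted p = 0.191). *Fzd3*, *Fzd6* and *Fzd8* were each lower with adjusted p-values close to the threshold. *Fzd3* had 1.04, 0.941 and 1.20 TPM in K382Q against 1.73, 1.72 and 1.42 TPM in K382R libraries (log2 difference −0.44, adjusted p = 0.0406). *Fzd6* had 1.63, 1.65 and 1.55 TPM against 2.55, 2.23 and 2.14 TPM (log2 difference −0.41, adjusted p = 0.0279). *Fzd8* had 5.89, 6.72 and 6.86 TPM against 8.79, 7.31 and 7.78 TPM (log2 difference −0.27, adjusted p = 0.0485). In all 3 every K382Q library was below every K382R library, but none of them passed with median-ratio scaling. The calls of *Fzd3* and *Fzd6* were lost without any 1 library other than K382R replicate 3 (adjusted p up to 0.112 and 0.0937), and that of *Fzd8* without any other than K382R replicate 2 (up to 0.153).

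*Fzd4* and *Fzd5* did not pass. *Fzd4* was at 9.87 to 10.7 TPM in K382Q and 9.52 to 10.7 TPM in K382R libraries, with a log2 difference of 0.044 (95% interval −0.12 to 0.21). After median-ratio scaling the difference of *Fzd4* was 0.19, with an interval of 0.030 to 0.35 that lay above 0, but it did not pass after adjustment (adjusted p = 0.0606), nor with quantile normalization (0.19, adjusted p = 0.0579). *Fzd5* was at 6.68 to 7.02 and 6.51 to 7.56 TPM, with a log2 difference of −0.050 (−0.24 to 0.14) that changed sign to 0.093 (−0.098 to 0.28) after median-ratio scaling. *Fzd9* reached 1.10 TPM in K382R replicate 1 but was between 0.215 and 0.517 TPM in the other libraries, and *Fzd10* was above 0 in 1 library, at 0.0163 TPM. The order of the levels was nearly the same in both mutants. *Fzd1* stood above *Fzd7*, *Fzd7* above *Fzd4*, then came *Fzd5* and *Fzd8*, which overlapped and changed places, and then *Fzd2*, *Fzd6* and *Fzd3*, all without overlap between other neighbours. The TPM summed over the family was 57.8 to 58.1 in K382Q and 68.0 to 70.9 in K382R libraries. After median-ratio scaling the sums were 60.4 to 61.4 and 64.1 to 67.1, which did not overlap either. *Fzd1* made up 25.8% ± 0.693 of the sum in K382Q and 27.5% ± 1.43 in K382R libraries (SD, n = 3), *Fzd7* 24.2% ± 0.391 and 24.1% ± 0.987, *Fzd4* 17.8% ± 0.698 and 14.4% ± 0.785, and *Fzd2* 3.91% ± 0.673 and 5.83% ± 0.948. The shares of *Fzd4* and *Fzd5* were larger in every K382Q library, and those of *Fzd2*, *Fzd3* and *Fzd6* smaller. These shares are descriptions, without a test.

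**Figure D4:**
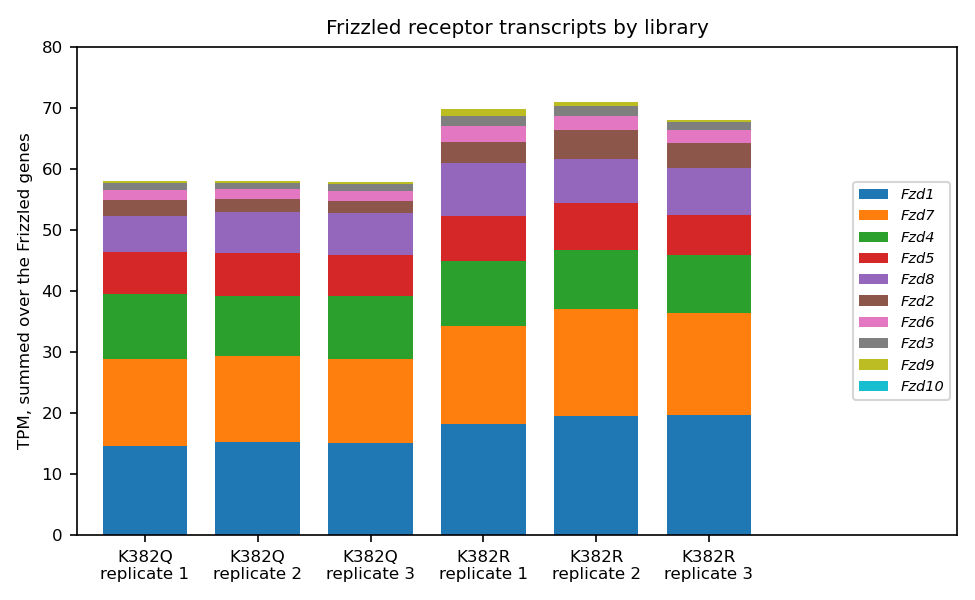
TPM of the 10 Frizzled genes stacked for each of the 6 libraries. The stacks reach 57.8 to 58.1 TPM in K382Q and 68.0 to 70.9 TPM in K382R libraries, and the band of *Fzd4* has about the same height in all.

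The co-receptors of the β-catenin branch were the most abundant of the 22 genes, and *Lrp5* was higher in K382Q-overexpressing cells. *Lrp5* was at 68.8, 72.1 and 69.9 TPM in K382Q and at 59.8, 60.6 and 60.5 TPM in K382R libraries. The groups were far apart for their narrow spread. The log2 difference of *Lrp5* was 0.22 ± 0.033 (adjusted p = 0.00110), and it passed in all 15 alternatives. It was 0.37 after median-ratio scaling and 0.38 with quantile normalization. *Lrp6* was at 41.7, 39.0 and 41.5 TPM and at 39.1, 38.2 and 37.6 TPM. The groups overlapped and the difference of 0.088 ± 0.042 did not pass (adjusted p = 0.127), although it passed at 0.24 after median-ratio scaling (adjusted p = 0.00253). The sum of both was 110.6 to 111.4 TPM in K382Q and 98.2 to 98.9 TPM in K382R libraries, opposite in direction to the sum of the Frizzled genes.

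*Ror2*, the receptor tyrosine kinase that WNT5A uses, was lower in K382Q-overexpressing cells, with 3.49, 3.17 and 3.43 TPM against 4.81, 4.60 and 4.86 TPM in K382R libraries. The groups did not overlap. The difference of −0.44 ± 0.091 on the log2 scale (adjusted p = 0.00485) passed in all 15 alternatives. *Ror1* reached at most 0.0794 TPM. The ligand and this receptor thus differed in opposite directions, so that *Wnt5a* was 1.01 ± 0.102 times *Ror2* in K382Q and 0.436 ± 0.0294 times in K382R libraries (SD, n = 3). This ratio was chosen after the values were seen and is a description.

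Both expressed LGR genes were lower in K382Q-overexpressing cells on the TPM scale, where 36.9% of all genes were lower, and *Lgr6* on every scale tried. *Lgr6* (ENSMUSG00000042793.14, chromosome 1, 134911039 to 135033014) was at 0.308, 0.150 and 0.267 TPM in K382Q and at 2.02, 2.29 and 1.85 TPM in K382R libraries. All K382Q libraries were below the expression limit of 0.5 TPM, so the gene passed the filter through the K382R libraries alone. A fit over all genes without the filter gave an adjusted p of 8.48e-04. The log2 difference was −1.79 ± 0.17 (adjusted p = 1.09e-04), and it was −1.11 to −2.68 over the 15 alternatives. Because the filter took *Lgr6* by its K382R level, a call among filtered genes is no support for a difference. *Lgr4*, the abundant receptor of the family, was at 22.5, 21.9 and 21.2 TPM in K382Q and at 25.5, 25.2 and 24.9 TPM in K382R libraries. The groups did not overlap, but the log2 difference of −0.20 ± 0.045 (adjusted p = 0.00769) was near the median of all genes, and after median-ratio scaling it was −0.049 (adjusted p = 0.402). *Lgr5* was above 0 in 1 library, at 0.0251 TPM.

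*Rspo3*, an R-spondin ligand, stood just outside the expression filter because only 2 libraries reached 0.5 TPM. It was at 0.151, 0.135 and 0.0787 TPM in K382Q and at 0.487, 0.617 and 0.867 TPM in K382R libraries. Every K382Q library was below every K382R library, and without the filter the log2 difference was −0.88 (adjusted p = 0.00831). *Rspo2* was listed at 0 in the K382Q libraries and at 0.183, 0.144 and 0.0817 TPM in the K382R libraries, so no fold is given, and its adjusted p without the filter was 0.0155. *Rspo1* was at 0 in all libraries, and *Rspo4* was above 0 in 1 library, at 0.0576 TPM. *Sfrp1*, *Tcf7* and *Wnt5b* were the genes just inside the filter and *Rspo3* and *Fzd9* those just outside it.

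Among the secreted inhibitors, *Sfrp2* was lower in K382Q-overexpressing cells, and so was *Sfrp1*, at a level close to the filter. *Sfrp2* (ENSMUSG00000027996.14, chromosome 3, 83673628 to 83681623) was at 0.362, 0.905 and 0.634 TPM in K382Q and at 4.26, 4.67 and 4.82 TPM in K382R libraries. The lowest K382R library was more than 4 times the highest K382Q library. *Sfrp2* had a log2 difference of −2.19 ± 0.19 (adjusted p = 6.44e-05), the largest of the 22 genes, and it passed in all 15 alternatives at −1.59 to −2.74. With the alternative filter at a TPM of 1 it entered only through the K382R libraries, so that call is no support. An antisense gene, *Gm26771*, lies opposite 21.0% of its exonic bases but reached only 0.0839 TPM. *Sfrp1* was at 0.294, 0.213 and 0.0979 TPM in K382Q and at 0.741, 0.702 and 0.583 TPM in K382R libraries. It too passed the filter through the K382R libraries alone, so its call among filtered genes is no support for a difference. Without a filter its adjusted p was 0.0137. The log2 difference was −0.75 ± 0.21 (adjusted p = 0.0182), but its call was lost without K382Q replicate 3, K382R replicate 1 or K382R replicate 2 (adjusted p = 0.0585, 0.0573 and 0.0542).

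*Sfrp4* and *Frzb*, 2 other members of the SFRP family, reached at most 0.0890 and 0.0862 TPM, and *Sfrp5* at most 0.244 TPM. The summed TPM of the SFRP genes was 0.788 to 1.21 in K382Q and 5.29 to 5.52 in K382R libraries. Some Dickkopf proteins, DKK1 among them, are antagonists of LRP5 and LRP6. *Dkk1* was at 0 in all libraries, the sum of all 4 was 0.167 TPM at most, and *Wif1* was at 0 in all libraries. A value of 0 in these tables is a value listed as 0, and no count stands behind it here.

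Of the 3 expressed TCF/LEF factors 1 was higher in K382Q-overexpressing cells, beside 11.1% of all genes, and 2 did not pass. *Tcf7l1*, which mostly acts as a repressor, was at 15.1, 16.5 and 16.7 TPM in K382Q and at 13.5, 14.4 and 13.9 TPM in K382R libraries. The groups did not overlap, and the log2 difference was 0.20 ± 0.060 (adjusted p = 0.0258). The call was lost without K382Q replicate 2 or 3 or K382R replicate 1 or 3 (adjusted p from 0.0647 to 0.0854), while median-ratio scaling gave 0.35 (adjusted p = 0.00340). *Tcf7l2*, the other abundant factor, was at 10.5 to 12.2 and 11.2 to 12.8 TPM with a log2 difference of −0.12 (95% interval −0.31 to 0.068), and of 0.025 (−0.17 to 0.22) after median-ratio scaling. *Tcf7* was at 0.183, 0.718 and 0.596 TPM and at 0.769, 0.777 and 1.09 TPM. Its groups did not overlap, but the log2 difference of −0.50 (95% interval −1.10 to 0.10) did not pass (adjusted p = 0.152). *Lef1* reached 0.285 TPM. *Axin2*, a gene widely used as a readout of β-catenin signalling, was at 0.293, 0.371 and 0.194 TPM in K382Q and at 0.0491, 0.208 and 0.268 TPM in K382R libraries. These values overlapped, and the gene was below the filter. Without the filter its log2 difference was 0.23, which did not pass (adjusted p = 0.432).

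Another 66 genes of the pathway, listed by role, were read from the same fit. Of these 51 were tested, and 31 were lower and 3 higher in K382Q-overexpressing cells, with a median log2 difference of −0.26, beside 36.9% lower and 11.1% higher over all genes. After median-ratio scaling 17 were lower and 5 higher, with a median of −0.12, beside 20.4% lower and 19.9% higher over all genes. Without *Tle2*, which reached the filter only through the K382R libraries, 30 of 50 were lower, and 16 after median-ratio scaling. *Apcdd1* and *Znrf3* stand in 2 lists each and are counted in both. Each list below is read against these shares. Only *Porcn* and *Cd44* also passed the fold change of 2, beside 3.88% of all genes. With median-ratio scaling only *Porcn* did, beside 3.78% of all genes, and the same held with quantile normalization and FPKM. In each list, up to 3 genes with the largest differences among those that passed are named here.

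Among other secreted or surface modulators 4 of 8 tested genes were lower and 1 was higher, and after median-ratio scaling 1 was lower and 1 higher. *Apcdd1*, an inhibitor at the cell surface, was at 1.33 ± 0.129 TPM in K382Q and 2.82 ± 0.268 TPM in K382R libraries (log2 difference −0.86, adjusted p = 0.00108). *Igfbp4*, whose secreted product can block LRP6 and Frizzled as well as IGF, was higher, at 34.5 ± 2.04 against 26.7 ± 2.72 TPM (0.36, adjusted p = 0.00646). *Tmem67* was at 2.96 ± 0.364 against 3.91 ± 0.0697 TPM (−0.36, adjusted p = 0.0307), a call that held in 5 of 15 alternatives and was lost without any 1 library other than K382Q replicate 1 (adjusted p up to 0.0911). Of its exonic bases 8.37% lie opposite *Rbm12b2*, at 6.08 to 8.08 TPM, so strand could matter here as for *Wnt5b*.

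Of the other co-receptors and planar cell polarity genes, 6 of 8 tested were lower and none was higher, and after median-ratio scaling 3 were lower. This branch orients cells in a sheet and does not use β-catenin. *Ptk7*, a co-receptor of that branch, was at 1.72 ± 0.298 TPM in K382Q and 3.69 ± 0.249 TPM in K382R libraries (−0.92, adjusted p = 9.24e-04). *Prickle2* was at 0.845 ± 0.132 against 1.76 ± 0.379 TPM (−0.74, adjusted p = 0.00984). *Vangl2* was at 1.44 ± 0.0892 against 2.10 ± 0.234 TPM (−0.42, adjusted p = 0.0324), and its call was lost without K382Q replicate 2 or 3 or K382R replicate 2 or 3 (adjusted p up to 0.0999) and with median-ratio scaling (adjusted p = 0.104).

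Inside the cell, 8 of 13 tested genes for Dishevelled proteins, the destruction complex and β-catenin were lower and none was higher, with small differences. After median-ratio scaling 4 were lower and 1 (*Dvl1*) was higher, with a median log2 difference of −0.014. β-Catenin itself, *Ctnnb1*, was at 252 ± 3.49 TPM in K382Q and 316 ± 1.77 TPM in K382R libraries (−0.33, adjusted p = 3.83e-05). *Apc*, the scaffold of the complex that degrades it, was at 17.7 ± 1.34 against 22.6 ± 0.658 TPM (−0.35, adjusted p = 0.00298), and *Tnks2*, whose product marks axin for removal, at 52.1 ± 1.93 against 65.7 ± 0.804 TPM (−0.33, adjusted p = 2.72e-04). These 3 still passed after median-ratio scaling, with differences of −0.18 to −0.20. Among nuclear cofactors 5 of 12 were lower, a share near that of all genes, and 1, *Bcl9l*, was higher, a call that held in 8 of 15 alternatives. After median-ratio scaling 2 were lower and 1 higher. The corepressor gene *Tle2* was at 0.318 ± 0.145 against 1.02 ± 0.118 TPM (−0.91, adjusted p = 0.00682), and since it was below 0.5 TPM in every K382Q library it entered the test only through the K382R libraries. Of its exonic bases 5.8% lie opposite *Tle6*, at 0.711 to 2.62 TPM, so strand could matter here too. *Bcl9*, whose product links β-catenin to the transcription machinery, was at 6.29 ± 0.418 against 9.32 ± 0.438 TPM (−0.53, adjusted p = 9.98e-04). *Cby1*, which encodes an antagonist of β-catenin, was at 60.5 ± 1.68 against 69.5 ± 2.93 TPM (−0.20, adjusted p = 0.00614), a call that median-ratio scaling ended (adjusted p = 0.461).

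The last list held genes known as targets of β-catenin and TCF. Of 10 tested, 9 were lower and none was higher, with a median log2 difference of −0.72 (*Apcdd1* and *Znrf3* of the surface modulators included), and 7 were lower and 1 (*Fosl1*) higher after median-ratio scaling. *Cd44*, a receptor for hyaluronan, was at 11.8, 13.9 and 12.3 TPM in K382Q and at 28.1, 26.1 and 26.2 TPM in K382R libraries. The groups were well apart, with a log2 difference of −1.05 ± 0.071 (adjusted p = 1.87e-05) that became −0.91 after median-ratio scaling. *Ccn5* (WISP2) was at 5.24 ± 0.438 against 10.5 ± 0.800 TPM (−0.94, adjusted p = 1.12e-04). *Ccnd1*, cyclin D1, was at 4.94 ± 0.179 against 9.57 ± 0.951 TPM (−0.89, adjusted p = 1.42e-04), and 48.4% of its exonic bases lie opposite exons annotated for *LTO1*, which was at 13.4 to 16.8 TPM, so its value is uncertain in the same way as that of *Wnt5b*. The target genes *Nkd1*, *Nkd2* and *Sp5* were below the filter, at 0.345 TPM or less, as were *Notum* and *Rnf43*. *Nkd1* had the higher mean in K382Q, at 0.232 against 0.0627 TPM, with overlapping groups. Its adjusted p without the filter was 0.138. Many genes of this list also respond to other signals.

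**Figure D5:**
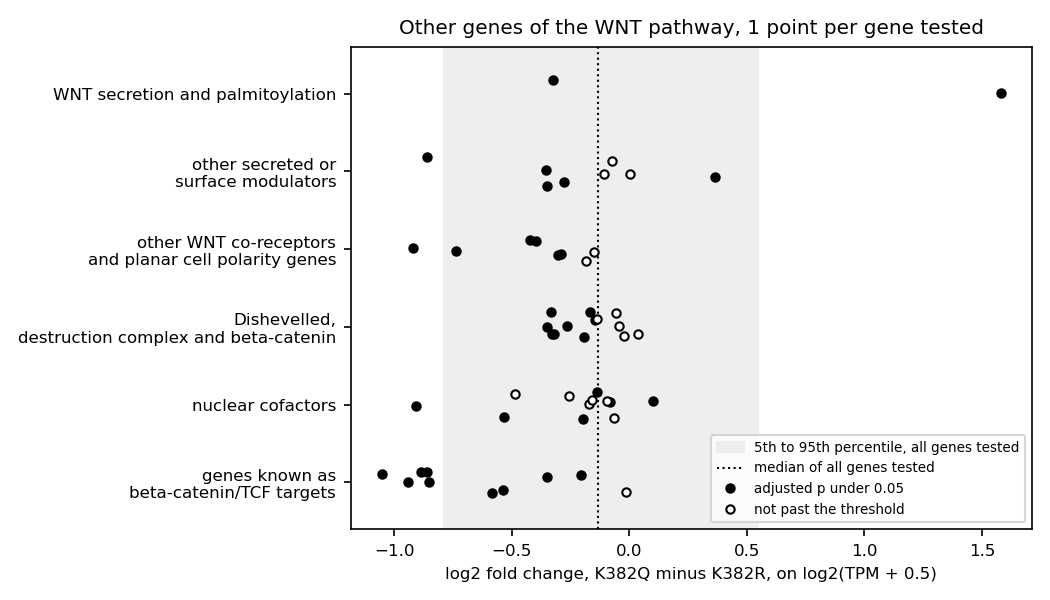
The log2 difference (K382Q minus K382R) of each tested gene in 6 lists of other WNT pathway genes. Filled points passed an adjusted p of 0.05, open points did not, the dotted line is the median of all genes tested and the grey band spans their 5th to 95th percentile. *Porcn* lies alone at 1.58, and 5 points of the target list lie below the band.

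Markers of some other cell states also differed between the mutants. Their counts stand beside 36.9% lower and 11.1% higher over all genes, and 20.4% and 19.9% after median-ratio scaling. The summed TPM of 7 preadipocyte or fibroblast markers was 508 to 552 in K382Q and 866 to 903 in K382R libraries. All 5 that were tested (*Pdgfra*, *Pdgfrb*, *Ly6a*, *Col1a1* and *Thy1*) were lower, by 0.72 to 1.25 on the log2 scale, while *Dpp4* was at 0 and *Cd34* at or below 0.525 TPM. The sum of 4 smooth muscle or myofibroblast markers was 1.96 to 2.23 TPM in K382Q and 15.4 to 18.0 TPM in K382R libraries, and the 2 tested, *Acta2* and *Tagln*, were lower, while *Cnn1* and *Myh11* stayed at or below 0.541 TPM. The sum of the 8 adipocyte markers was higher in every K382Q library than in any K382R library, also after median-ratio scaling (54317 to 59157 against 41450 to 42712 TPM). Most of that sum was *Fabp4*, at 46394 to 50292 TPM in K382Q and 37390 to 38541 TPM in K382R libraries. Of these markers *Fabp4* and *Cidec* were higher and *Pparg*, *Cebpa*, *Adipoq* and *Lpl* lower, and *Plin1* did not pass. These calls depended in part on the scale, since *Lpl* no longer passed and *Plin1* was higher after median-ratio scaling (adjusted p = 0.412 and 0.0252), *Fabp4* and *Cidec* did not pass with quantile normalization (adjusted p = 1 and 0.221), and *Fabp4* did not pass without the filter (adjusted p = 0.272). The part of these markers in the lower *Sfrp2*, *Lgr6*, Frizzled and target gene values was not tested. Endothelial markers summed to 1.57 to 2.23 TPM in K382Q and 1.69 to 1.82 TPM in K382R libraries and leukocyte markers to 3.44 to 4.66 and 3.17 to 5.10 TPM, with overlapping ranges. Of 3 Schwann or neural markers *Sox10* was at 0 and none was tested, with sums of 0.578 to 0.755 and 0.264 to 0.378 TPM.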

How the data were processed

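RNA from 3 K382Q and 3 K382R libraries was sequenced in pairs of reads. The authors aligned the reads to GRCm39 with HISAT2 and quantified genes with StringTie. The release of the gene annotation and the strand setting are not given in the sources used here. The deposited tables gave, for each library, coverage (mean read depth per base, not normalized), FPKM (the authors scaled coverage to total aligned bases) and TPM (the authors scaled each library to the same total). TPM was tested, FPKM was an alternative, and the ratio of coverage to FPKM gave the aligned bases. The authors ran DESeq2 on counts, which were not used here, so precision rests on 3 replicates. The p-values set each difference against the spread between these samples, which limma moderates with the spread of other genes. Separate infections were not stated, so other differences between the stable lines cannot be told apart from the mutation. At most 5 repeated gene IDs per table were summed, and no library was a copy of another (shared values in 0.0583% of genes or fewer).

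Genes reaching a TPM of 0.5 in 3 or more libraries were tested with limma 3.58.1 (R 4.3.3, intensity trend) on log2(TPM + 0.5). On simulated data for this comparison, 84 of 87 genes changed 2-fold and 112 of 113 changed 4-fold were called in the right direction, and 8 unchanged genes of 15146 tested were called. The changed genes had means of at least 1 TPM, both groups had the spread of the K382R libraries, and the bulk of genes did not shift. The simulation thus does not cover changes in genes under 1 TPM or the shift of all genes seen here. Alternatives were pseudocounts of 1 and 0.1, no filter, a filter at a TPM of 1, FPKM, median-ratio scaling, quantile normalization, no trend, a replicate block and each library left out. Every expressed member is named, with all values where it passed, and in each other list up to 3 that passed with the largest differences. Members and lists were chosen with earlier results of these data known. Figures were drawn with matplotlib 3.10.9, and sums and motif counts were made in Python 3.11.15 (pandas 2.3.3, numpy 2.4.6).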

Additional observations from a re-analysis of the deposited data

How the results depend on the processing

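The counts of lower genes depended on the scale. Of the 12 members lower in K382Q, 6 passed with FPKM, 6 with median-ratio scaling and 6 with quantile normalization, and 4 in place of 3 were higher in each. At the same threshold, 4135 of all 15426 genes were lower and 2368 higher with FPKM. These numbers were 3143 and 3069 with median-ratio scaling, and 3241 and 2954 with quantile normalization. Of the 34 other pathway genes past the threshold (3 higher, 31 lower), 20 were also called with median-ratio scaling and 20 with quantile normalization. Both called 2 others, *Dvl1* and *Fosl1*, which made 22 (5 higher, 17 lower), and FPKM gave 20 lower. Over all genes, 599 passed both thresholds, and FPKM gave 379, of which 227 were lower. These scalings moved the median of all genes from −0.14 to −0.052 (FPKM), −0.0048 (quantile) and 0.0039 (median ratio). Median-ratio scaling also raised the higher share of the genes past both thresholds, from 196 of 599 to 287 of 583.

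Leaving out 1 library at a time gave 9 to 12 members past the threshold (2 to 3 higher, 7 to 10 lower), with 9 without K382Q replicate 3 and 9 without K382R replicate 1. It gave 27 to 32 other pathway genes (2 to 3 higher, 25 to 29 lower) and 611 to 646 genes past both thresholds. The share of all genes past adjusted p alone is not given for these fits, so the counts of members and pathway genes are not read against it. *Sfrp2* passed both thresholds in all 15 alternatives. With the filter at a TPM of 1 it entered only through the K382R libraries, so that call is no support. *Lgr6* also passed both thresholds in all 15, and *Sfrp1* with a pseudocount of 0.1 (−1.41). *Lgr6* and *Sfrp1* reached the main filter only through the K382R libraries, so this is no sign of stability.

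Of 328 values of single members under an alternative, 260 kept direction and side of the threshold, 56 no longer passed, 3 newly passed (*Lrp6*, with FPKM and both other scalings) and 9 changed sign, none of which had passed. *Wnt5b* became 0.00038 without K382R replicate 1, and ranged from −0.52 to that value when a library was left out. *Wnt11* became −0.14 without K382Q replicate 2, −0.091 without K382R replicate 1 and −0.049 without K382R replicate 2, in a range up to 0.26. *Fzd5* became 0.026 with FPKM, 0.093 with median-ratio scaling and 0.094 with quantile normalization, and *Tcf7l2* 0.025 and 0.032 with the latter 2. The cause was not tested.

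Same-numbered replicates did not deviate together (correlations of −0.018, 0.051 and 0.022), so the numbers were not taken as pairs. With the replicate number as a block 11 of 22 members (3 higher, 8 lower) and 30 of 51 other pathway genes were called. Beside them, 6987 of all 15426 genes were called (1600 higher, 5387 lower), and 604 passed both thresholds. Without counts, depth sets no interval here, and genes under 1 TPM are the least certain.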
